A study of Canis lupus familiaris with 33 samples.

Results

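The distal ends of the 38 dog autosomes were examined for methylated regions in 11 tissues of healthy beagles. A distal region was a peak of the authors' MBD-seq lists whose start lay within 2 Mb of the largest peak end seen on that autosome in any list. This position rule gave 226762 peaks of the 3158680 autosomal peaks and of the 3300391 peaks in all, in windows that summed to 76 Mb, or 3.45% of the autosomal span covered by the lists. In MBD-seq, sheared DNA is captured on beads carrying a methyl-CpG-binding domain, and captured fragments are sequenced; here DNA of about 300 bases was captured and the fractions eluted at 600 and 800 mM were read. The series held 22 MBD and 11 input libraries, and each tissue had 2 MBD libraries and 1 input library but a single peak list.

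Animal and tissue varied together. One female, whose titles read as in MBD_CL_679, gave an MBD library of every tissue and is called the common female below. The second MBD library came from a male titled jj8 in cerebellum, cerebrum, kidney, liver, lung, pancreas and spleen. It came from a female titled jj82 in colon and stomach and from another female, titled as in MBD_OV_244, in mammary gland and ovary. Pancreas, ovary, kidney and mammary gland had an input library of the common female. The input of the other 7 tissues was titled jj8 but labelled female. The titles therefore carried 4 animal names although the labels describe 3 dogs. Ages were not given in the labels, and no allele or treatment distinguished the groups. Because the lists combine animals, spread within a tissue could not be computed and read depth is unknown. Tissues were the units of every test, and they share animals and a genome, so p-values measure only how alike these 11 lists were.

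Dog autosomes are acrocentric, with the centromere close to the start of the reference numbering, so the distal end is the end of the long arm that carries the telomere. In mammals, the DNA next to telomeres tends to be rich in G and C, in CpG and in genes. CpG is the pair of bases at which most mammalian DNA methylation sits, and capture by a methyl-CpG-binding domain depends both on how many CpG a fragment holds and on how many of them are methylated. A peak therefore marks a stretch with several methylated CpG. The CpG content of these windows was not analysed here, and its part in the results was not tested.

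Methylated peaks were about 2 times as dense at distal ends as in the rest of the autosomes. Distal density was 245 peaks per Mb in lung, 272 at the median tissue and 305 in cerebellum. In the rest of the autosomes it was 109 peaks per Mb in colon, 121 at the median tissue and 156 in ovary, so the ranges of distal and remaining density did not overlap. The ratio of the densities ran from 1.89 in ovary through 2.17 in liver to 2.44 in pancreas. Its log2 value was 1.12 ± 0.11 (SD, n = 11) and was above 0 in 11 of 11 tissues (exact sign-flip permutation test over tissues, two-sided, p = 0.000977, the lowest value that 11 tissues can give). The p-value was 0.000977 for each of the 5 distal measures tested (density, width, fold, peaks in all tissues and peaks in 1 tissue), and adjustment over the 5 by Benjamini-Hochberg left it at 0.000977.

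Cerebellum and ovary had the most distal peaks, 23188 and 22351, and lung and mammary gland the fewest, 18601 and 18818. The order of the ratio was different, with pancreas, colon (2.38), spleen (2.32) and stomach (2.32) highest, and ovary, cerebrum (2.02), cerebellum (2.04) and kidney (2.04) lowest. The 4 tissues with the lowest ratio were those with the most autosomal peaks outside the windows, and the part of list length in this order was not tested. With lists reduced to equal size the log2 ratio ranged from 1.08 in cerebrum to 1.29 in pancreas, against 0.92 to 1.29 with the full lists. Distal peaks made up 6.32% of the autosomal peaks in ovary and 8.01% in pancreas.

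Counted in bases, the difference was larger. Peaks covered 27.1% of the distal windows in pancreas, 29.5% at the median tissue and 32.5% in ovary, against 5.60% (pancreas), 6.86% (median) and 8.72% (ovary) of the remaining autosomes. The ratio of covered shares lay between 3.73 in ovary and 4.84 in pancreas. Pancreas thus had the lowest coverage in both parts and the largest ratio, and ovary the highest coverage and the smallest ratio.

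**Figure D1:**
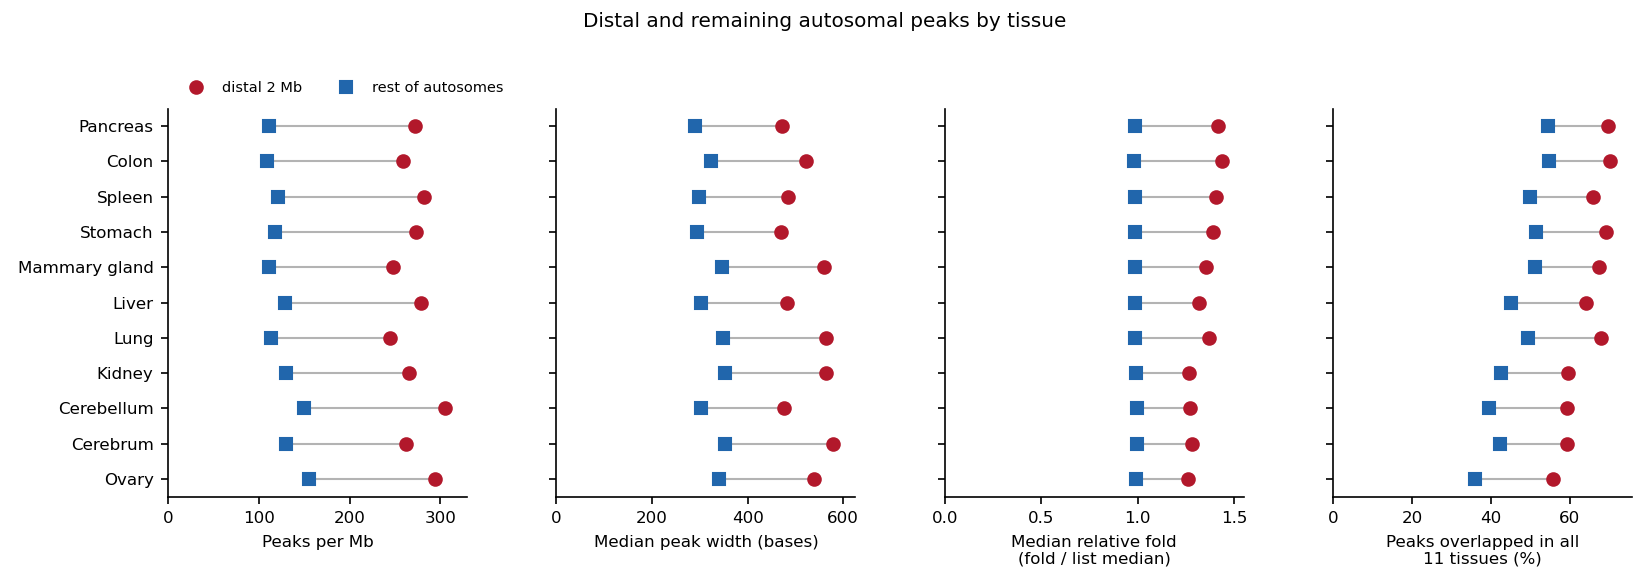
Peaks per Mb, median peak width in bases, median relative fold and percent of peaks overlapped in all 11 tissues, for distal peaks (red circles) and the remaining autosomal peaks (blue squares), 1 row per tissue ordered by density ratio. In every tissue the distal value lies above the other on all 4 axes, with distal densities of 245 to 305 peaks per Mb.

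Distal peaks were wider. Their median width was 470 bases in stomach, 521 at the median tissue and 579 in cerebrum, and that of the remaining peaks was 290 bases in pancreas, 323 at the median tissue and 353 in kidney. The log2 ratio of the medians was 0.69 ± 0.02 (SD, n = 11), a ratio between 1.58 in cerebellum and 1.64 in cerebrum, and was above 0 in 11 of 11 tissues (exact sign-flip permutation test, two-sided, p = 0.000977). Among peaks whose fold enrichment lay between 0.8 times the median of their list and that median divided by 0.8, the log2 ratio of width was smaller, 0.19 ± 0.02 (SD, n = 11). Of the 5 measures, the ratio over all peaks varied least among tissues relative to its size.

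The excess of distal peaks grew with peak width. Among peaks under 250 bases the density ratio was 1.20 at the median tissue, from 1.05 in ovary to 1.27 in pancreas. For peaks of 250 to under 400 bases it was 1.46, from 1.19 in ovary to 2.05 in pancreas, and for peaks of 400 to under 1000 bases it was 2.53. It reached 5.14 for peaks of 1000 to under 5000 bases, from 4.55 in cerebrum to 6.12 in pancreas. For peaks of 5000 bases or more it was 18.9, from 16.3 in cerebrum to 22.7 in stomach. The ranges over tissues of the last 3 bands did not overlap each other. Peaks of 5000 bases or more were few, 2.37% (cerebellum) to 4.05% (lung) of distal peaks and 0.243% to 0.515% of the others. Even so, the distal windows held 36.7% (cerebrum) to 44.8% (stomach) of all autosomal peaks of that width in 3.45% of the span. The widest distal peak of a list measured between 22782 bases in spleen and 34195 bases in cerebrum.

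**Figure D2:**
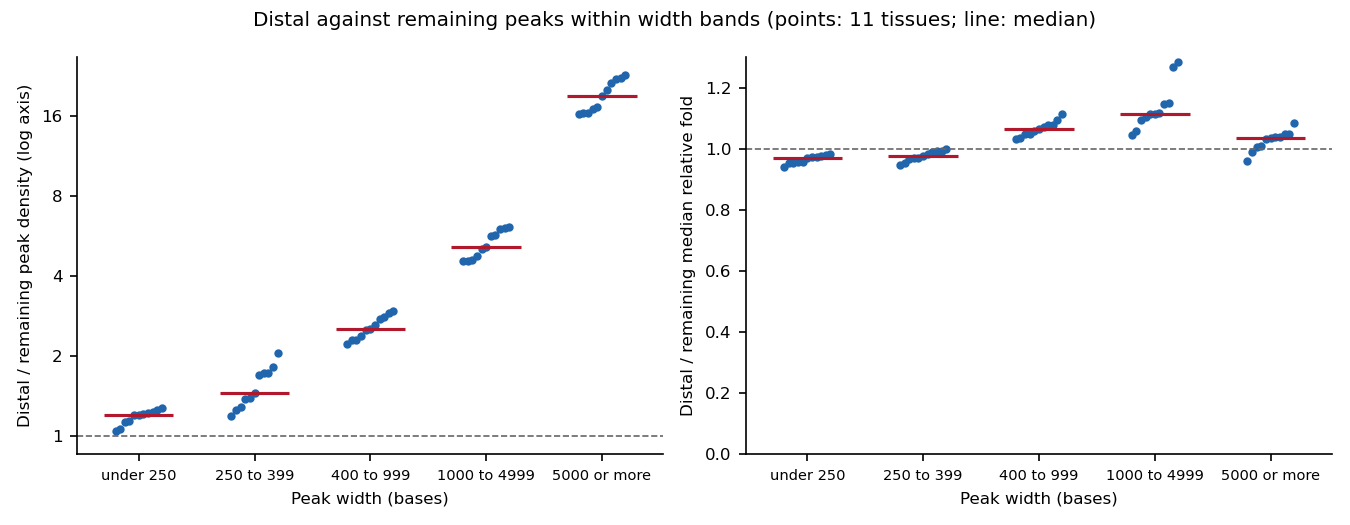
Ratio of distal to remaining peak density (left, log axis) and of median relative fold (right) within 5 bands of peak width, with 1 point per tissue and a red line at the median. The density ratio climbs from a median of 1.20 under 250 bases to 18.9 at 5000 bases or more, whereas the fold ratio stays between 0.943 and 1.29 in every band and tissue.

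The fold enrichment of a peak, given by the authors for each peak, was divided by the median of its list to give a relative fold. The median relative fold of distal peaks was 1.26 in ovary, 1.35 at the median tissue and 1.43 in colon, while that of the remaining peaks lay between 0.982 in colon and 0.995 in cerebrum. As deposited, the median fold was 12.1 for distal and 8.63 for remaining peaks in stomach, and 7.97 against 6.20 in cerebrum. The log2 ratio was 0.44 ± 0.08 (SD, n = 11) and was above 0 in 11 of 11 tissues (exact sign-flip permutation test, two-sided, p = 0.000977). The deposited −log10 p-value had a distal median of 31.1 in cerebellum to 55.5 in pancreas and a median of 19.4 in lung to 30.9 in stomach elsewhere. Of the 10% of autosomal peaks with the highest fold in each list, 14.4% (ovary) to 18.7% (spleen) were distal, against 6.32% (ovary) to 8.01% (pancreas) of all autosomal peaks. The ratio of these shares was 2.06 in liver to 2.51 in lung.

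The difference in fold was small among peaks of like width and turned among narrow peaks. For peaks of 250 to under 400 bases the log2 ratio of fold was −0.03 ± 0.03 (SD, n = 11; exact sign-flip permutation test, two-sided, p = 0.000977), so distal peaks of that width had a slightly lower fold in 11 of 11 tissues. The fold ratio was 0.970 at the median tissue for peaks under 250 bases and was below 1 in all 11 tissues. It was 1.07 for peaks of 400 to under 1000 bases and 1.12 for peaks of 1000 to under 5000 bases, above 1 in all 11 tissues in both bands. For peaks of 5000 bases or more it was 1.04 and above 1 in 9 tissues. Mammary gland reached the highest fold ratio of the band of 1000 to under 5000 bases, 1.29, and ovary the lowest, 1.05.

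Distal peaks were more often shared by every tissue. The percent of distal peaks overlapped by at least 1 base of a peak in all of the other 10 lists was 55.8% in ovary (95% Wilson interval 55.2% to 56.5%), 65.8% in spleen, the median tissue, and 70.1% in colon (69.5% to 70.8%). For the remaining autosomal peaks it was 35.9% in ovary, 49.5% at the median tissue and 54.7% in colon. The difference was 17.4 ± 1.69 percentage points (SD, n = 11) and was above 0 in 11 of 11 tissues (exact sign-flip permutation test, two-sided, p = 0.000977). For every smaller number of tissues, from 1 to 10, the percent of peaks was lower among distal peaks in all 11 lists. Wilson intervals cover counting error only. Peaks covered 27.1% (pancreas) to 32.5% (ovary) of the distal windows against 5.60% to 8.72% of the rest, and distal peaks were wider. Both make overlap by position alone more likely at distal ends. The part of such overlap in the percents of peaks in all tissues and in a single tissue was not tested.

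Peaks found in a single tissue were rarer at distal ends. They made up 6.12% of distal peaks in cerebellum (95% Wilson interval 5.82% to 6.44%) against 10.6% of its remaining peaks (10.5% to 10.7%). In ovary the values were 3.69% (3.45% to 3.94%) and 7.72% (7.63% to 7.82%). In the other 9 tissues the distal value lay between 0.107% in pancreas and 0.802% in kidney. The difference was −1.08 ± 1.59 percentage points (SD, n = 11) and was below 0 in 11 of 11 tissues (exact sign-flip permutation test, two-sided, p = 0.000977). Cerebellum and ovary set much of this mean, and the median tissue, spleen, differed by −0.485 points. Within the band of relative fold between 0.8 and the inverse of 0.8 the mean was −0.309 points, and spleen was above 0 at 0.0888. Among peaks of 250 to under 400 bases the mean was −0.303 points, and mammary gland was above 0 at 0.0859.

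Sharing also moved with width and fold. Among peaks under 250 bases the percent found in all tissues was lower for distal peaks in 6 lists and higher in 5, with differences from −3.24 points in pancreas to 4.50 points in cerebellum. For peaks of 250 to under 400 bases it was higher for distal peaks in 9 lists and lower in 2. The mean difference there was 1.95 ± 2.69 points (SD, n = 11; exact sign-flip permutation test, two-sided, p = 0.0391), with values from −1.91 to 6.77. For peaks of 400 to under 1000 bases it was higher for distal peaks in all 11 lists, by 3.68 points in cerebrum to 9.25 points in lung. For peaks of 1000 to under 5000 bases it was also higher in all 11, by 1.31 points in pancreas to 3.19 points in ovary. Among peaks with a relative fold between 0.8 and the inverse of 0.8 the mean difference was 7.03 ± 2.37 points (SD, n = 11; exact sign-flip permutation test, two-sided, p = 0.000977). Of peaks of 5000 bases or more, 100% were found in all tissues, distal or not.

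Values were also taken within technical classes of the lists. The log2 density ratio was 1.10 ± 0.16 (SD, n = 4) in tissues with the input of the common female and 1.14 ± 0.09 (SD, n = 7) with the input of jj8. The lists also fall into those whose shortest peak is under 200 bases (cerebellum, colon, liver, pancreas, spleen, stomach) and over 200 bases (the other 5). The log2 density ratio was 1.18 ± 0.09 (SD, n = 6) in the former and 1.04 ± 0.09 (SD, n = 5) in the latter, and the log2 fold ratio 0.47 ± 0.07 (SD, n = 6) and 0.40 ± 0.06 (SD, n = 5). All 11 tissues had the same direction on each of the 5 measures. Agreement of the classes in direction was therefore fixed beforehand and is no separate check.

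Density declined gradually with distance from the end, and 2 Mb was not a natural boundary. At the median tissue it was 291 peaks per Mb in the last 1 Mb, 255 between 1 and 2 Mb, 240 between 2 and 3 Mb and 215 between 3 and 4 Mb. It was 144 between 7 and 8 Mb and 77.7 between 19 and 20 Mb. Within the window, the outermost 0.25 Mb was less dense, at 263 peaks per Mb (235 to 285 over tissues), than the next 0.25 Mb, at 311 (280 to 329). Median width fell from 538 bases in the last 1 Mb to 391 bases between 3 and 4 Mb, and the median relative fold from 1.40 to 1.09 over the same distance. The relative fold was below 1 at the median tissue from 6 Mb onward, while density went on falling, with small rises between neighbouring bins, from 133 between 9 and 10 Mb to 94.4 between 14 and 15 Mb. Just inside the limit, between 1.9 and 2 Mb, the median tissue had 261 peaks per Mb, a median width of 461 bases and a relative fold of 1.22. Just outside, between 2 and 2.1 Mb, it had 242 peaks per Mb, 492 bases and 1.26.

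**Figure D3:**
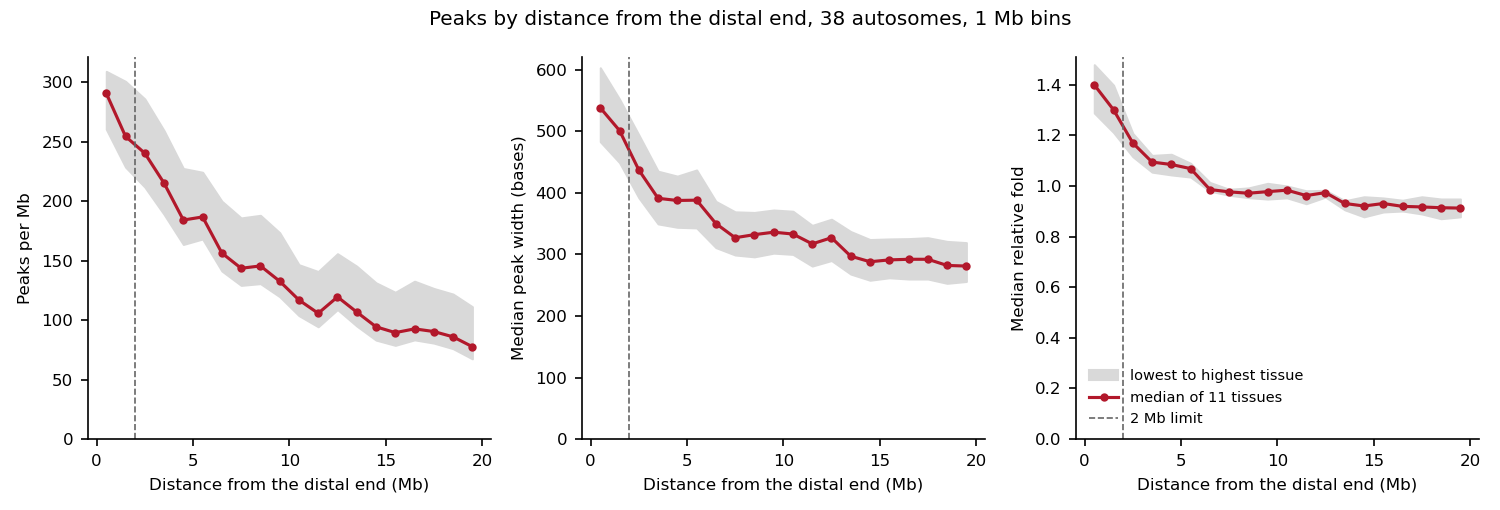
Peaks per Mb, median peak width and median relative fold in 1 Mb bins from 0 to 20 Mb from the distal end, over 38 autosomes; the red line is the median of 11 tissues, the grey band runs from the lowest to the highest tissue, and the dashed line marks 2 Mb. Density falls from 291 to 77.7 peaks per Mb along the axis with no step at 2 Mb.

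Proximal ends, at the centromeric side, were also denser than the autosomal rest but less so than distal ends. The first 2 Mb held 178 peaks per Mb in mammary gland, 195 at the median tissue and 217 in ovary, and its range lay below that of distal density. Set against this proximal part, the log2 density ratio of distal ends was 0.48 ± 0.04 (SD, n = 11; exact sign-flip permutation test, two-sided, p = 0.000977). The log2 ratios of width and fold were 0.39 ± 0.02 and 0.21 ± 0.05 (SD, n = 11; exact sign-flip permutation test, two-sided, p = 0.000977 for each). The percent of peaks found in all tissues was 6.64 ± 0.996 points higher at distal ends (SD, n = 11; exact sign-flip permutation test, two-sided, p = 0.000977). The percent of peaks in a single tissue differed by −0.296 ± 0.345 points (SD, n = 11; exact sign-flip permutation test, two-sided, p = 0.00195), where the value against the rest of the autosomes was −1.08. It ranged from −1.10 in ovary to 0.0102 in mammary gland, the one tissue in which it was not lower at distal ends.

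The 38 autosomes differed widely. The median over tissues of the distal to remaining density ratio was above 1 in 35 autosomes, above 2 in 23 and above 3 in 11, with a median of 2.25. In 32 autosomes the ratio was above 1 in all 11 tissues. It was below 1 in all 11 tissues on chromosomes 13 and 35. The median was 2.23 over autosomes 1 to 26 and 2.62 over the 12 autosomes 27 to 38, whose own values ran from 0.824 to 4.50. Distal peaks had a higher median fold than the rest of the same autosome at the median tissue in 32 of 38 autosomes, and a greater median width in 33.

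Chromosome 22 had the highest ratio. Its window, 59439499 to 61439498 in CanFam3.1, held 353 to 430 peaks per Mb over tissues, with a median of 393, against 79.0 in its remainder, and the median ratio was 4.97. It was followed by chromosome 29 with 4.50, chromosome 14 with 4.40, chromosome 4 with 4.03 and chromosome 19 with 3.84. Chromosome 4 was the densest distal window of all, 375 to 471 peaks per Mb with a median of 415. These high ratios met low densities elsewhere on the chromosome, between 68.1 peaks per Mb (chromosome 29) and 99.5 (chromosome 4), whereas the median autosome had 114.

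Chromosome 13 had the lowest ratio, 0.711, with 61.5 to 123 peaks per Mb and a median of 76 in its window at 61241924 to 63241923 and 112 in its remainder. Its distal peaks were also narrower, with a width ratio of 0.848, and had a lower fold in all 11 tissues, with a ratio of 0.902. Chromosome 35 followed with a ratio of 0.824, chromosome 9 with 0.964, chromosome 8 with 1.07 and chromosome 5 with 1.13. The distal density of chromosome 9, 186 peaks per Mb, was below the median of 295 over the 38 distal windows, and its remainder, at 196 peaks per Mb, was the densest of all autosomes.

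Chromosome 8 stood apart within its window (72324554 to 74324553). Its outermost 0.5 Mb held 10 peaks per Mb at the median tissue (6 to 18), the next 0.5 Mb held 32 (24 to 38), the third 94 (84 to 114) and the innermost 326 (278 to 440). The innermost 0.5 Mb, which held most of the window's peaks, had a median width of 1315 bases and a relative fold of 2.30 at the median tissue, while the outermost had 258 bases and 0.727, below the 313 bases and 0.971 of the rest of the chromosome. Over the whole window the ratio to the rest of the chromosome was 2.06 for fold and 2.52 for width. No such gradient was seen on chromosome 22, where the 4 steps held 372, 462, 428 and 304 peaks per Mb at the median tissue.

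**Figure D4:**
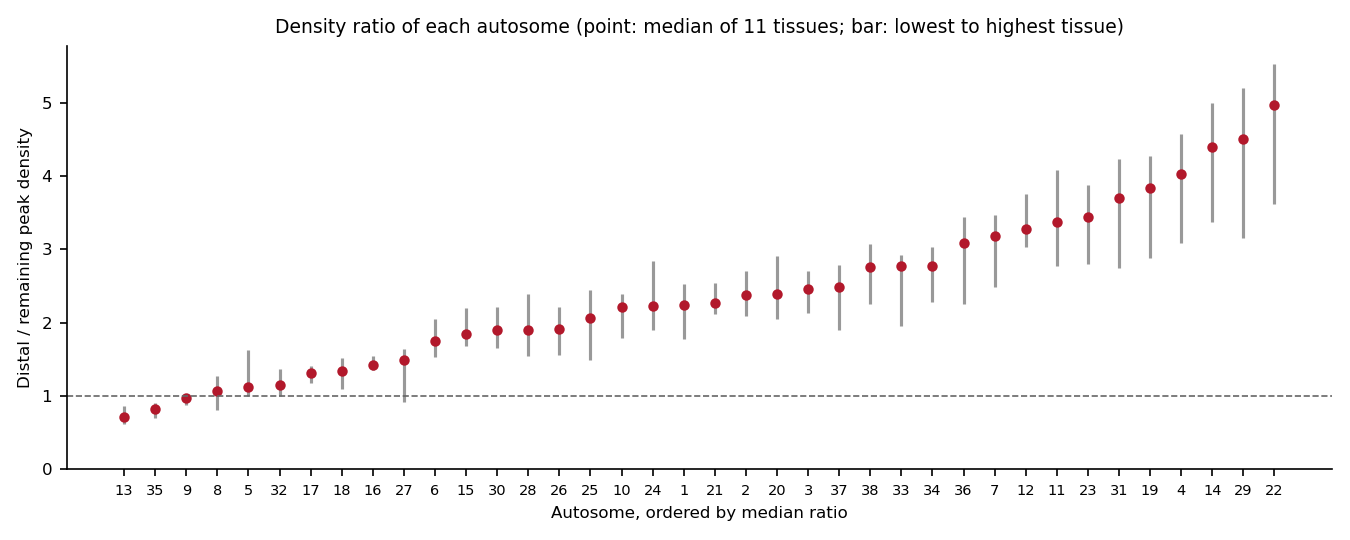
Ratio of distal to remaining peak density for each of the 38 autosomes, ordered by the median; points are medians of 11 tissues and bars run from the lowest to the highest tissue, with a dashed line at 1. Medians extend from 0.711 on chromosome 13 to 4.97 on chromosome 22, and 32 autosomes lie above 1 in all tissues.

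In the sources used here, the genes at these ends could be named by gene order in another assembly, the RefSeq annotation of UU_Cfam_GSD_1.0, and were not placed on the peaks. In that order, the outermost protein-coding genes with a symbol on chromosome 22 are CHAMP1, which acts in chromosome attachment to the spindle, UPF3A of the nonsense-mediated decay pathway, and CDC16, a subunit of the anaphase-promoting complex. On chromosome 13 they are AREG, EREG and EPGN, which encode ligands of the epidermal growth factor receptor. On chromosome 35 they are UBD, which encodes a ubiquitin-like modifier, then RNF39 and PPP1R11. On chromosome 8 the outermost are TMEM121, TEDC1 and CRIP1, on the side where the immunoglobulin heavy chain locus of the dog lies.

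Merging overlapping peaks of all lists gave 24428 distal regions with a median width of 504 bases, against 426363 regions of 344 bases in the rest of the autosomes. Peaks were chained by overlap, so the tissues of a region need not share a base. Chaining is likelier where peaks are denser and wider, and its part in the values below was not tested. Of the distal regions, 10489 were shared by all 11 tissues, which is 42.9% (95% Wilson interval 42.3% to 43.6%), whereas 111039 of the other regions were, or 26% (25.9% to 26.2%). The median width of these shared distal regions was 1272 bases, and they held 80.1% of the distal bases in any region, compared with 767 bases and 52.3% elsewhere. Merged regions of all tissues covered 38.3% of the distal windows and 11.6% of the remaining span. Regions with a peak in a single tissue were 12.6% (12.2% to 13.1%) of distal and 18.5% (18.4% to 18.6%) of other regions.

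Cerebellum and ovary supplied most of the distal regions with a peak in a single tissue. Cerebellum held 1419 of these 3085 regions, or 46.0% (95% Wilson interval 44.2% to 47.8%), against 42.5% (42.2% to 42.9%) in the other regions. Ovary held 824, or 26.7% (25.2% to 28.3%), against 32.4% (32.1% to 32.7%), and pancreas the fewest, 22. Of the 1965 distal regions with a peak in 10 tissues, cerebellum was the tissue without one in 742, or 37.8% (35.6% to 39.9%), against 32.9% (32.4% to 33.4%) in the other regions. Lung came next with 242, or 12.3% (10.9% to 13.8%). Whether these shares differ between distal and other regions beyond counting error was not tested.

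The fold of shared regions differed between tissues in the distal windows. Over the 10489 distal regions present in every tissue, the mean log2 relative fold of the 11 tissues was subtracted from that of each tissue. The median difference was 0.25 in lung, 0.24 in mammary gland and 0.13 in spleen at the upper end. At the lower end it was −0.29 in ovary, −0.13 in liver and −0.10 in cerebellum. Over the 111039 other shared regions these medians were closer to 0, at 0.12 in lung, 0.07 in mammary gland and −0.09 in ovary. The distal median differed from the other by 0.17 in mammary gland and 0.13 in lung, by less than 0.01 in stomach and kidney, and by −0.21 in ovary. Shared distal regions were wider, as given above, and wide peaks outside the windows showed a like order of tissues. Among remaining peaks of 5000 bases or more the median relative fold was 5.59 in mammary gland, 5.05 in lung and 2.33 in ovary, against 6.07, 5.25 and 2.24 among distal peaks of that width. The part of width in the distal values was not tested. With a single list per tissue these differences between tissues have no replicate check.

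**Figure D5:**
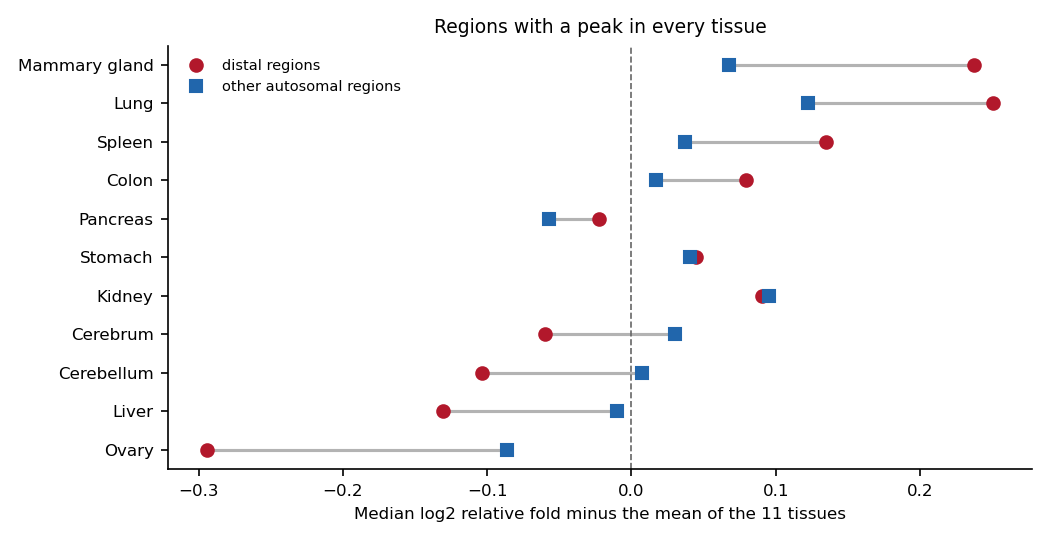
Median log2 relative fold minus the mean of the 11 tissues, over regions with a peak in every tissue, for distal regions (red circles) and other autosomal regions (blue squares), ordered by their difference. Distal values run from −0.29 in ovary to 0.25 in lung and lie farther from 0 than the other values in ovary, liver, cerebellum, cerebrum, colon, spleen, lung, mammary gland and stomach, but not in pancreas and kidney.

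Strong and wide shared regions were frequent at distal ends. Of the 1215 shared autosomal regions with the highest mean log2 relative fold, 461 or 37.9% were distal, and of the 1215 widest, 473 or 38.9% were, whereas 8.63% of all 121528 shared regions were distal. A region's value in a tissue is that of its highest peak, so wide regions with more peaks have more chances of a high value. Of the 1215 shared regions with the largest SD of log2 relative fold among tissues, 114 or 9.38% were distal, close to the 8.63%. The SD had a median of 0.44 (log2) in distal and 0.42 in other shared regions.

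Named regions are given by their chromosome and position in CanFam3.1, and their genes were not analysed here. The shared distal region with the highest mean log2 relative fold lay on chromosome 16 at 59356086 to 59357044. It lay 237 kb from the end and was 959 bases wide. Its relative fold was 2.08 in cerebrum, 5.64 at the median tissue, kidney, and 8.39 in spleen. The second, on chromosome 2 at 84139235 to 84143911, ranged from 2.76 in cerebrum through 4.01 in liver to 7.50 in mammary gland. The third, on chromosome 23 at 52177510 to 52193904, was 16395 bases wide and lay 116 kb from the end. Its relative fold was 2.21 in ovary, 4.20 in cerebrum, the median tissue, and 8.02 in mammary gland. Over the 10 highest regions ovary had the lowest relative fold in 8 and cerebrum in the other 2. Mammary gland had the highest in 8, and spleen (chromosome 16) and lung (chromosome 3, 91689970 to 91704173) in 1 each. The same tissues were the extremes among wide peaks outside the windows, where ovary was lowest and mammary gland highest for peaks of 1000 to under 5000 bases (1.88 and 3.09) as for those of 5000 bases or more.

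The widest distal region measured 44171 bases, on chromosome 24 at 46986974 to 47031144, 711 kb from the end. Its relative fold was 2.27 in ovary, 4.11 at the median tissue and 7.03 in mammary gland. Chromosome 24 also held the second widest, 35974 bases at 45895970 to 45931943, and chromosome 38 held regions of 34195 and 33812 bases. Between these in width lay a region of 33876 bases on chromosome 26 at 38674008 to 38707883. This region and the second widest were also among the 10 highest by mean log2 relative fold.

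The shared distal regions that varied most among tissues were lowest in cerebellum or cerebrum. On chromosome 19 at 53038643 to 53039251 the relative fold was 0.422 in cerebellum, 0.595 in liver, 1.57 at the median tissue, spleen, and 4.38 in pancreas, with an SD of 1.11 (log2). On chromosome 7 at 80073075 to 80074079 it was 0.366 in cerebellum, 2.61 in mammary gland, the median tissue, and 4.21 in spleen. On chromosome 20 at 57085186 to 57087918 it was 0.498 in cerebellum and 5.33 in mammary gland, and on chromosome 1 at 121361617 to 121363223 it was 0.434 in cerebellum and 4.54 in lung. The next, on chromosome 11 at 74221762 to 74223341, was lowest in cerebrum at 0.406 and highest in pancreas at 3.57. Cerebellum was thus the lowest tissue in 4 of these 5 regions and cerebrum in 1. How often each tissue was lowest over all shared regions, distal or elsewhere, was not counted. These counts are therefore not shown to be particular to distal ends.

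Cerebellum was also the missing tissue in all 5 of the strongest distal regions with a peak in 10 tissues. It was missing in 37.8% of all such distal regions and in 32.9% of such regions elsewhere. On chromosome 7 at 79939544 to 79940677 the relative fold of the other 10 tissues ran from 1.57 in ovary to 6.13 in mammary gland. On chromosome 9 at 60740307 to 60742844 it ran from 1.68 in ovary to 4.70 in mammary gland, and on chromosome 20 at 57395884 to 57397748 from 1.49 in pancreas to 5.71 in mammary gland. The other two lay on chromosome 31 at 39624973 to 39625556 and on chromosome 7 at 80689433 to 80690592.

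Among distal regions with a peak in a single tissue, the strongest of each tissue had a relative fold between 0.723 in stomach and 3.05 in mammary gland. Liver followed mammary gland, with 1.77 for a region of 1509 bases on chromosome 20 at 57173608 to 57175116. The cerebellum region, on chromosome 11 at 74113681 to 74114525, had 1.47, and the ovary region, on chromosome 23 at 51598916 to 51599222, had 1.36. The mammary gland region lay 809 kb from the end of chromosome 23. In stomach, lung and pancreas the strongest such region was below the median fold of its own list.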

How the data were processed

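The files were 11 narrow-peak lists without a header, 1 per tissue; both MBD libraries of a tissue carry the same list per the labels. Coordinates are on CanFam3.1 per the submitters' processing notes. The aligner, the peak caller, the filters and the way 2 libraries became 1 list are not given in the sources used here. The columns were read by place: the deposited fold is a ratio over a control no label names, and the deposited −log10 p-value and score belong to single peaks; the score was not used. The summit offset served 1 alternative. Depth is unknown.

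Density was counted by peak start. The comparator was every other autosomal peak, over the span from the smallest peak start of each autosome. Sharing was overlap by at least 1 base. Differences were tested by an exact sign-flip permutation test over all 2048 sign patterns of 11 tissues, with Benjamini-Hochberg adjustment over 5 results. Computations were tested on simulated data. Members, rules and regions were chosen with earlier results of these data known. Autosomes named were the 5 with the highest and the 5 with the lowest density ratio. Regions named among the shared were the highest by mean log2 relative fold, by its SD over tissues and by width. Also named were the strongest by that mean of those missing from 1 tissue, and the strongest found in each tissue alone. Alternatives changed the window, the comparator, the threshold, the list size, the width, the overlap rule and the tissues included. Bands of fold and width, the proximal comparator and another end position were chosen after seeing the data. Python 3.11.15, numpy 2.4.6, pandas 2.3.3, scipy 1.17.1 and matplotlib 3.10.9 were used.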

Additional observations from a re-analysis of the deposited data

Results flagged for a closer look

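Among 20 groups of tissues examined for a far value (4 groups by input animal or sex labels, for each of 5 measures), 4 held a tissue apart from the others, where chance flags about 1 in 20 groups. The 4 are not independent, since they come from 2 tissues and 1 measure, and each tissue belongs to a group by input and to a group by sex. The measure was the difference between distal and other peaks in the percent found in a single tissue. Ovary, at −4.04 percentage points, lay apart from the other tissues with the input of the common female (−0.614 to −0.0604) and from the other tissues with female MBD libraries only (−0.156 to −0.137). Cerebellum, at −4.45 points, lay apart from the other tissues with the input of jj8 (−0.822 to −0.153) and from the other tissues with a female and a male library (−0.822 to −0.0604). Both had the longest lists and the most peaks in a single tissue, and the part of list length was not tested. With lists of equal size the difference was −2.47 points in ovary, −3.28 points in cerebellum and −1.05 to −0.187 points in the other 9 tissues.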

How the results depend on the processing

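Over 61 alternatives and 55 fits without a tissue, 115 kept their direction and stayed past the threshold of 0.05. The exception was the fold among peaks of 250 to under 400 bases, with a log2 ratio of −0.033; the peaks compared there had like widths, and the cause was not tested. Every tissue had the same direction in the main result. Direction and p-value of the fits without a tissue were therefore all but fixed beforehand for density, width and fold. Without each tissue in turn, the log2 ratios ranged from 1.10 to 1.14 for density, 0.68 to 0.69 for width and 0.43 to 0.45 for fold. The percent in all tissues ranged from 16.4 to 17.3 points and that in 1 tissue from −1.24 to −1.02 points. The log2 density ratio was 1.17 with a 1 Mb window, 0.99 with a 5 Mb window, 1.51 for the upper 50% of each list by fold, 2.11 for covered bases, and 0.66 and 0.61 within the bands of fold and width. The width ratio was 0.19 (log2) within the band of fold. The percent in 1 tissue was −1.87 points for that upper 50%, −0.309 within the band of fold (exact permutation test, two-sided, p = 0.0137) and −0.303 within the band of width (p = 0.0264). No analysis paired by animal was possible because each tissue has a single list that combines its libraries. Single libraries could not be left out for the same reason. Density per CpG was not run, as no sequence was used here.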

Other observations

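Chromosome X, which the autosomal comparisons leave out, was dense at both ends. Its last 2 Mb held 194 peaks per Mb in kidney, 221 at the median tissue and 274 in cerebellum, against 70.2 (colon) to 140 (cerebellum) in its interior, a ratio of 1.76 in ovary to 2.91 in colon. Unlike on the autosomes pooled, the first 2 Mb of X was denser than the last in all 11 tissues. The first 2 Mb held 372 peaks per Mb in cerebrum, 405 at the median tissue and 430 in liver. Proximal density of single autosomes is not given here. The first 2 Mb lies in the part of X that pairs with Y. The median relative fold was 1.33 to 1.48 in the first 2 Mb, 0.965 to 1.32 in the last 2 Mb and 0.851 to 0.967 in the interior.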
